A study of Mus musculus with 8 samples.

Results

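Trimethylation of lysine 9 of histone H3 (H3K9me3) was mapped on chromosomes 1 and 2 of mouse embryonic fibroblasts (MEFs), fibroblasts grown from mouse embryos. All regions of the H3K9me3 list that lie on these chromosomes were taken, which gave 2033 of the 27108 regions of the whole list, with 1192 on chromosome 1 and 841 on chromosome 2. The study was done by ChIP-seq, in which chromatin fragments bound by an antibody are sequenced, and used antibodies to the mono-, di- and trimethyl states (H3K9me1, H3K9me2 and H3K9me3) on wild-type MEFs. The 8 samples formed 4 groups, each mark and the input, and each group had 2 replicates. The cells called wild type were, by the description of the lines, a single clone of MEFs that carries a conditional allele of the H3K9 methyltransferase gene Eset1, also named Setdb1, and an inducible Cre. Treatment with the inducing drug is not given for these samples in their labels. Each mark has 1 region list for both of its replicates. The values below therefore carry no SD, and how many reads support a region is not known here. Below, a mark is called present, met or covering where its list holds a region, and absent where its list holds none. Signal below the calling threshold is not seen in the lists. In the study's heatmaps of signal, H3K9me3 peaks also showed some H3K9me2. Intervals are 95% Wilson intervals for shares and cover counting error only, since neighbouring regions are not independent.

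Silent and compact chromatin, called heterochromatin, carries methyl groups on H3K9. H3K9me3 is set by the Suv39h and Setdb enzymes, is bound by HP1 proteins, and is known for pericentromeric repeats, retrotransposons and silenced gene clusters. H3K9me2 is set mainly by the G9a and GLP enzymes on silent regions of the chromosome arms, and H3K9me1 is the lowest state of the same residue. The 3 lists were compared by position to ask how wide the H3K9me3 regions are, whether they lie in gene deserts or on genes, and how far the other states share them.

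Sequences of 6 promoters inside H3K9me3 regions are shown first. In each of these promoters, the RefSeq window of 250 bases before to 50 bases after the start lay wholly inside an H3K9me3 region, and the 250 bases before the start are printed 5′ to 3′ on the gene's strand (GRCm38.p6), with every CG dinucleotide, the target of DNA methylation, in capitals. None of the 6 printed stretches of 250 bases held an annotated exon base. Tshz2 and Edn3 were chosen as genes of the widest regions, Hoxd10 and Evx2 as neighbours in the Hoxd cluster, and Bpifb6 and Pdc because H3K9me2 was present on them too.
Tshz2, chr2:169632259-169632508, plus strand: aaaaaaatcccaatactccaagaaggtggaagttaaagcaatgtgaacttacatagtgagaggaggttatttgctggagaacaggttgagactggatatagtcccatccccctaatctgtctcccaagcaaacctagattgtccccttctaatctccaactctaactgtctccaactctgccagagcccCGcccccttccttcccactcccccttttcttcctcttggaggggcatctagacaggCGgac
Edn3, chr2:174760369-174760618, plus strand: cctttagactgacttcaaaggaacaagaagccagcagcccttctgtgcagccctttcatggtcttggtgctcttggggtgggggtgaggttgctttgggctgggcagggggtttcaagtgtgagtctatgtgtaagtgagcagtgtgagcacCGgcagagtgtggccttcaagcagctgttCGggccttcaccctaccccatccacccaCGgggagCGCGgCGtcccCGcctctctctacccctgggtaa
Hoxd10, chr2:74691641-74691890, plus strand: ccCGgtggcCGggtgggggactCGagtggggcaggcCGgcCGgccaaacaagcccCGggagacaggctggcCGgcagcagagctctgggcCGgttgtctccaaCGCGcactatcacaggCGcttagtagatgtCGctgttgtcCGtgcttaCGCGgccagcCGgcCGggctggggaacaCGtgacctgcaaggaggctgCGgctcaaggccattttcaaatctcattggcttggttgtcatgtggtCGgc
Evx2, chr2:74659558-74659807, minus strand: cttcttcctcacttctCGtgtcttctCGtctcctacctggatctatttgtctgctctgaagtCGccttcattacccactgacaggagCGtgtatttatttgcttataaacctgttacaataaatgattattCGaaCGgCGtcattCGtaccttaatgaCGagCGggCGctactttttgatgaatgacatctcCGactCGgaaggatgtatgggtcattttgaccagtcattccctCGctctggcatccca
Bpifb6, chr2:153900138-153900387, plus strand: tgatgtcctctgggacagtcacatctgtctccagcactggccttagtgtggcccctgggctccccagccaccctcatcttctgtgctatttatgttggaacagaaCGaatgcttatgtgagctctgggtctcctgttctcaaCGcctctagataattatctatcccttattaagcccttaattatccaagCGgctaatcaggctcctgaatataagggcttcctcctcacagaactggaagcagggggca
Pdc, chr1:150319167-150319416, plus strand: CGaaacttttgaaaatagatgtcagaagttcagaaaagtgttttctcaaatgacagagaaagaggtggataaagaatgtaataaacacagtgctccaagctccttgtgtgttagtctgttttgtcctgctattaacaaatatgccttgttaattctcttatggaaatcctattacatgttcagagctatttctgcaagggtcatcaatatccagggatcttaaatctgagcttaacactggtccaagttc

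The number of CG dinucleotides in the 250 bases was 2 at Tshz2, 7 at Edn3, 20 at Hoxd10, 14 at Evx2, 3 at Bpifb6 and 1 at Pdc. GC content ranged from 36.4% at Pdc to 65.6% at Hoxd10. The H3K9me3 promoters shown were therefore both rich and poor in CG. RefSeq held 2993 promoters of 2458 protein-coding genes of chromosomes 1 and 2, of which 85 lay wholly inside H3K9me3. The median number of CG was 8 in those 85 and 10 in the other 2908, and the median GC content was 54.0% and 55.6%, respectively. H3K9me2 covered all 250 bases at Bpifb6 and Pdc and none at Tshz2, Edn3, Hoxd10 and Evx2. H3K9me1 covered all 250 bases at Pdc and none at the other 5.

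The middle of the widest region of each chromosome is shown as an example of the sequence within broad H3K9me3 domains outside exons. The first stretch lies in an intron of Fam78b, and the second lies in the gene desert before Gm11011 and Tshz2. Capitals mark bases that are soft-masked as repeats in the assembly.
Fam78b region, chr1:167042101-167042400, plus strand: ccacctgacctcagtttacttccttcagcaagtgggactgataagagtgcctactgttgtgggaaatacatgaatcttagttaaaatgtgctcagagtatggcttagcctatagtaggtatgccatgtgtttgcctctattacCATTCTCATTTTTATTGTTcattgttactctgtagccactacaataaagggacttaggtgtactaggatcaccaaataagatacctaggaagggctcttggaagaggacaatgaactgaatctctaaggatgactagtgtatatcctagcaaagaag
Tshz2 region, chr2:169523476-169523775, plus strand: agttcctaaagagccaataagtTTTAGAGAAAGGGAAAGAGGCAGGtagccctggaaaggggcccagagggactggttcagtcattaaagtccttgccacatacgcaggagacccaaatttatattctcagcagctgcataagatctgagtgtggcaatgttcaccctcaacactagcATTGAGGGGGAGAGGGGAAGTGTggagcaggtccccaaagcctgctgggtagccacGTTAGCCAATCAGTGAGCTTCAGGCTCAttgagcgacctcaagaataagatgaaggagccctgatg

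Soft-masked bases made up 6.33% of the 300 bases in the Fam78b region and 25% of those in the Tshz2 region. The first stretch held 0 CG dinucleotides and the second held 3.

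Chromosome 2 had fewer but wider regions than chromosome 1. The 1192 regions of chromosome 1 covered 8.21 Mb, or 4.28% of its bases that are not N, while the 841 regions of chromosome 2 covered 11.3 Mb, or 6.32%. The density was 6.21 regions per Mb on chromosome 1 and 4.72 on chromosome 2. The median width was 5.25 kb (95% interval from order statistics 4.5 to 5.25 kb) on chromosome 1 and 6 kb (6 to 6.75 kb) on chromosome 2. All widths are multiples of the 750 bp bin in which regions were called, and the narrowest regions were 1 bin wide on both chromosomes.

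The chromosomes differed most in their widest regions. The 90th percentile of width was 12.75 kb on chromosome 1 and 20.25 kb on chromosome 2, and the 99th percentile was 39.1 kb and 138 kb. The widest region of chromosome 1 measured 97.5 kb and held 1.19% of the covered length of that chromosome. On chromosome 2 the widest measured 1038.75 kb and held 9.21%. All 14 regions of at least 100 kb lay on chromosome 2, where they made up 32.5% of the covered length. The 10 widest regions held 7.76% of the covered length of chromosome 1 and 28.4% of that of chromosome 2.

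**Figure D1:**
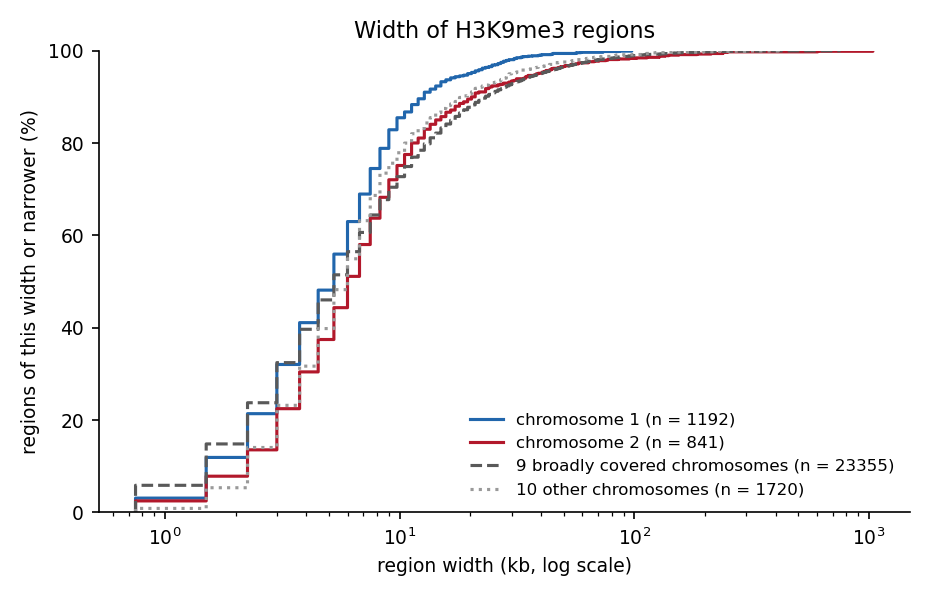
Cumulative share of H3K9me3 regions (y axis, %) by region width (x axis, kb, log scale) for chromosome 1, chromosome 2, 9 broadly covered chromosomes and 10 other chromosomes. The curves lie close together up to about the median, which is between 5.25 and 6 kb in every set, and the curve of chromosome 1 ends at 97.5 kb while that of chromosome 2 ends at 1038.75 kb.

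Neighbouring regions were mostly far apart. The median gap to the next region was 38.25 kb on chromosome 1 and 42 kb on chromosome 2, and 11.8% and 12.1% of the gaps were at most 5 kb. The longest stretch without a region measured 2893.5 kb on chromosome 1 and 3651 kb on chromosome 2. For comparison, the 9 chromosomes on which each of the 3 marks covered at least 5% of bases (5, 8, 9, 10, 11, 14, 15, 17 and 19) had 26.2% of their bases covered by H3K9me3, a median gap of 6.75 kb and a median width of 5.25 kb. The other 10 chromosomes had 1.38% covered, a median gap of 158 kb and a median width of 6 kb. Chromosomes 1 and 2, with 5.26% covered, lay between these sets in coverage and gap but had a similar median width. The sets were formed with their coverage known, so these values are a description without a test.

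H3K9me3 was concentrated towards the distal end of both chromosomes. The last 20 Mb of chromosome 2 held 51.1% of its covered length, with 29.6% of bases covered against 3.47% in the rest of the chromosome. Median width was 10.5 kb in this stretch and 6 kb in the rest. On chromosome 1, the last 20 Mb held 26.3% of the covered length, with 10.9% of bases covered against 3.52%. The 20 Mb stretch was chosen after its values were seen. Regions of the distal stretch met H3K9me2 in 33.8% of cases on chromosome 2 and 24.3% on chromosome 1, against 17.9% and 14.9% in the rest. H3K9me2 itself covered 6.26% of the distal bases and 2.25% of the rest on chromosome 2, and 4.66% and 1.60% on chromosome 1. H3K9me1 met 22.7% of the distal regions and 8.44% of the others on chromosome 2, and 8.10% and 8.96% on chromosome 1. Its own coverage of these stretches was 19.4% and 11.3% on chromosome 2 and 10.2% and 5.26% on chromosome 1.

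In windows of 1 Mb, the median share covered was 2.03% on chromosome 1 and 1.5% on chromosome 2. No H3K9me3 was present in 9 of 193 windows of chromosome 1 and in 26 of 180 windows of chromosome 2, and 22 windows on each were covered to more than 10%. The most covered window was chr2:169000001-170000000 with 99.6%, where H3K9me2 covered 4.18% and H3K9me1 0%. It was followed by chr2:171000001-172000000 with 87.8% and chr2:179000001-180000000 with 81.0%. The highest window of chromosome 1, chr1:190000001-191000000, was covered to 49.65%, with H3K9me2 on 35.9% and H3K9me1 on 21.8%. The 10 most covered windows held 38.4% of the H3K9me3 of chromosome 1 and 56.8% of that of chromosome 2.

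Of the 10 widest regions on chromosome 2, 5 met no protein-coding gene. The region of 1038.75 kb at chr2:169004251-170043000 was 55.7% gene desert and held the starts of Gm11011 and Tshz2, which encodes a zinc finger homeobox transcription factor. H3K9me2 covered 5.42% of it. The second, 604.5 kb at chr2:179174251-179778750, held the start of Cdh4, which encodes R-cadherin, and was covered to 23.0% by H3K9me2 and 2.98% by H3K9me1. The next widest, of 249 and 240 kb, lay wholly in the desert between Cdh26 and Cdh4, where neither H3K9me2 nor H3K9me1 was present. The region of 237.75 kb at chr2:174694501-174932250 met Zfp831 and held the start of Edn3, a peptide ligand of the endothelin receptors. Others of the 10 widest held the start of Dok5, an adaptor of receptor tyrosine kinases (212.25 kb), or lay wholly within Phactr3, a phosphatase and actin regulator gene (154.5 kb, with an internal transcript start but not the 5′ end of the gene).

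On chromosome 1, the widest region lay at chr1:166993501-167091000 (97.5 kb), held the start of Fam78b and was covered to 41.5% by H3K9me2 and 3.08% by H3K9me1. The second, at chr1:150280501-150366750 (86.25 kb), held the start of Pdc, which encodes phosducin of photoreceptor cells, and met Odr4. Here H3K9me2 covered 97.4% and H3K9me1 94.8%. A region of 73.5 kb lay wholly within Lmx1a, a LIM homeobox transcription factor gene, and another of 73.5 kb held the start of D1Pas1. Neither H3K9me2 nor H3K9me1 met these regions. Of the next 5 regions, 4 lay in the desert between Prox1 and Rps6kc1, with widths from 45 to 59.25 kb and H3K9me2 on 15% to 43.0% of their bases.

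Most H3K9me3 of chromosomes 1 and 2 lay outside protein-coding genes. Of the 2033 regions, 1380 (67.9%, 65.8 to 69.9%) met no protein-coding gene, 376 (18.5%) lay wholly in an intron, 144 (7.08%) lay inside a gene and touched an exon, and 133 (6.54%) crossed a gene's edge. A protein-coding start was held by 131 regions (6.44%), and 902 (44.4%) were more than 100 kb from the nearest one. The median distance to the nearest protein-coding start was 78.9 kb. Of the H3K9me3 regions of all chromosomes, 62.9% met no protein-coding gene, 7.55% held a protein-coding start and 39.9% were more than 100 kb from one. Their median distance was 60.1 kb. By bases and over genes of any type, 63.0% of the covered length was intergenic, 31.2% intronic, 1.91% exonic and 3.93% within 1 kb of a start, against 51.0%, 39.8%, 3.37% and 5.80% of both chromosomes as a whole.

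Covered bases had a higher GC content than uncovered bases (44.7% against 41.4%) and more CG dinucleotides (12.4 against 7.86 per kb). The soft-masked share was 47.4% in covered and 34.0% in uncovered bases on chromosome 1, and 35.7% and 31.9% on chromosome 2. These values were not tested. Regions that met H3K9me2 had a median soft-masked share of 32.0%, and those that did not had 55.7%. By chromosome these shares were 29.0% and 61.3% on chromosome 1, and 37.5% and 47.1% on chromosome 2. On both chromosomes together, regions that met H3K9me2 were also wider, with a median of 8.25 kb against 5.25 kb.

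A gene desert was taken as a gap of at least 500 kb between neighbouring protein-coding genes. On chromosome 1 their share of the H3K9me3 bases was close to their share of the chromosome, and on chromosome 2 it was larger. There were 88 deserts, with 49 on chromosome 1 and 39 on chromosome 2, and they made up 32.4% and 23.7% of the bases of these chromosomes. In total 699 regions (34.4%, 32.3 to 36.5%) lay wholly in a desert, with 446 (37.4%) on chromosome 1 and 253 (30.1%) on chromosome 2. By bases, deserts held 33.3% of the H3K9me3 of chromosome 1 and 38.7% of that of chromosome 2. H3K9me3 covered 4.40% of desert bases and 4.22% of the bases outside deserts on chromosome 1, and 10.3% and 5.08% on chromosome 2. Deserts of this kind can hold genes of other types, and gaps of at least 500 kb without any gene, which made up 4.85% of the assembled length, held 4.72% of the regions and 7.93% of the covered bases.

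H3K9me2 and H3K9me1 were distributed otherwise. On both chromosomes together, H3K9me2 covered 1.16% of desert bases and 2.73% of the bases outside, and H3K9me1 covered 0.444% and 12.1%. Deserts thus held 36.4% of H3K9me3, 14.3% of H3K9me2 and 1.42% of H3K9me1 bases, beside 28.2% of all bases. Among the H3K9me3 regions themselves, 71 of the 699 wholly in deserts met H3K9me2 (10.2%, 8.13 to 12.6%), against 301 of the other 1334 (22.6%, 20.4 to 24.9%). For H3K9me1 the counts were 21 (3%, 1.97 to 4.55%) and 177 (13.3%, 11.6 to 15.2%).

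The coverage of single deserts was very uneven. A median desert was covered to 2.35% by H3K9me3, 9 deserts were covered to more than 10%, and 9 held no region. The 10 deserts with the most covered bases held 56.3% of the desert H3K9me3 of chromosome 1 and 87.9% of that of chromosome 2, counted for each chromosome. The most covered bases lay between Dok5 and Cbln4 (chr2:170879770-172036232), where 20 regions covered 1022 kb, or 88.4%. Between Cdh26 and Cdh4 (chr2:178487367-179442430), 8 regions covered 98.0% of 955 kb. Between Dhx35 and Gm826, 42 regions covered 48.3% of 1453 kb, and between Zfp64 and Gm11011, 3 regions covered 93.2% of 627 kb. H3K9me2 covered at most 4.23% and H3K9me1 at most 0.415% of these 4 deserts.

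On chromosome 1, the desert between Prox1 and Rps6kc1 (chr1:190170715-190700201) stood highest, with 18 regions over 78.5% of its bases, and here H3K9me2 covered 45.2% and H3K9me1 5.37%. The other deserts among the 10 with the most covered bases were Slc4a3 to Epha4 (14.5%), Slc30a10 to Lyplal1 (21.1%) and Tnp1 to Tns1 (14.5%) on chromosome 1, and Api5 to Lrrc4c (8.14%) and Ppp6c to Lrp1b (8.55%) on chromosome 2. Of the deserts with no region, 2 lay on chromosome 1, namely Dusp10 to Hlx and Lyplal1 to Tgfb2, and 7 on chromosome 2, among them Mmadhc to Rnd3, Rasgrp1 to Thbs1 and Pax1 to Foxa2. Lyplal1 thus had a desert with 20 regions on one side and a desert with none on the other.

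**Figure D2:**
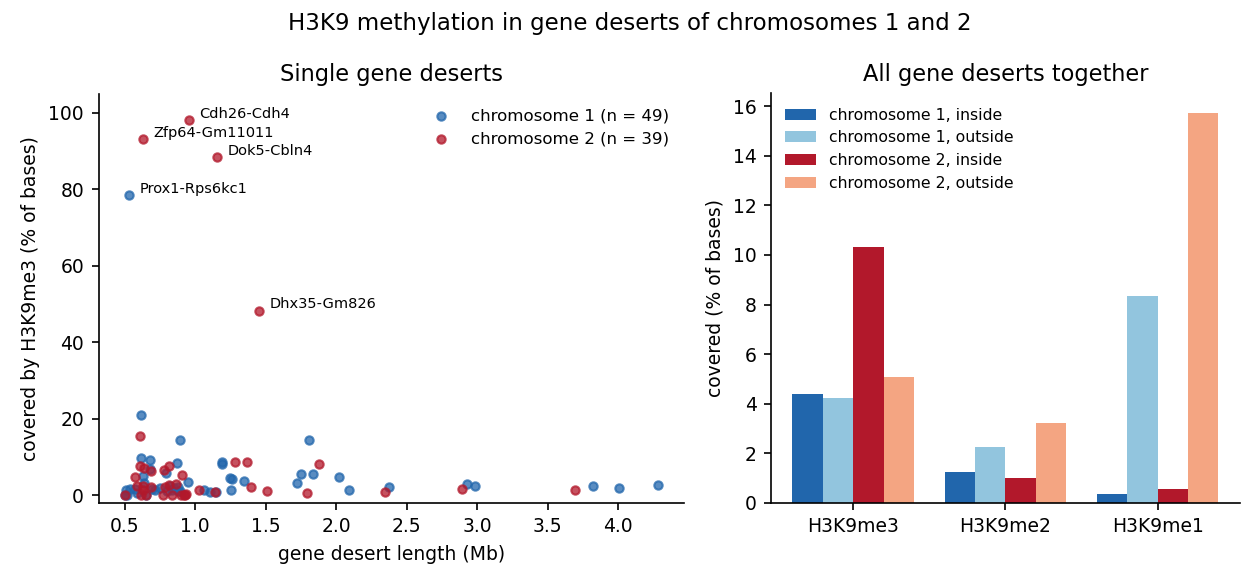
Left, share of bases covered by H3K9me3 (y axis, %) in each of the 88 gene deserts by desert length (x axis, Mb), with 49 deserts of chromosome 1 in blue and 39 of chromosome 2 in red, and the 5 with the most covered bases named. Right, share of bases covered by each mark inside and outside deserts. Nearly all deserts lie near the bottom, 4 of the named ones lie above 78%, and H3K9me1 and H3K9me2 bars are lower inside than outside deserts on both chromosomes.

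Among genes, 321 of the 3051 protein-coding genes of chromosomes 1 and 2 were met in the gene body (10.5%, 9.48 to 11.7%), where 16.3% of protein-coding gene bodies were met over all chromosomes. On chromosome 1 this was 161 of 1208 (13.3%) and on chromosome 2 160 of 1843 (8.68%). A promoter, here the window within 1 kb of any transcript start in the annotation, was met in 150 genes (4.92%, 4.20 to 5.74%), with 10.2% over all chromosomes. There were 65 (5.38%) on chromosome 1 and 85 (4.61%) on chromosome 2. In 179 genes, or 55.8% of those met in the body, no promoter was met. Met genes were longer, with a median of 72.3 kb against 18.2 kb for genes that were not met. The body was covered to at least 50% in 69 genes and to at least 90% in 40 genes.

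On chromosome 2, the 10 genes with the most covered bases were covered to between 8.57% and 97.5%. Ptprt, a receptor protein tyrosine phosphatase gene, held 572 kb of H3K9me3 in 35 regions, or 50.2% of its body (chr2:161521990-162661147), with H3K9me2 on 0.329%. Tshz2 was covered to 97.5% (428 kb) and Phactr3 to 97.4% (214 kb). In Cdh4, 81.3% was covered by H3K9me3 (372 kb), 41.7% by H3K9me2 and 18.2% by H3K9me1. Dok5 followed with 95.4% (141 kb) and no H3K9me2 or H3K9me1. Sema6d, an axon guidance gene, was covered to 21.9%, Pcsk2, a prohormone convertase gene, to 37.8%, Syndig1, a synapse gene, to 53.3%, Mpped2 to 36.0% and Etl4 to 8.57%.

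On chromosome 1, Esrrg, an orphan nuclear receptor gene, held 344 kb in 29 regions, or 56.7% of its body (chr1:187608791-188214885), with neither H3K9me2 nor H3K9me1. Lmx1a was covered to 85.3% by 8 regions, and Fam78b to 99.7% by 1 region. Cacna1e, a calcium channel gene, had 26.7% under H3K9me3 and 32.8% under H3K9me2. Kcnk2, a potassium channel gene, had 34.0% and 27.9%. C130026I21Rik had H3K9me3 on 52.9%, H3K9me2 on 24.8% and H3K9me1 on 39.7%. Aff3 was covered to 18.3%, Dner to 23.0% and Spata17 to 38.3%. Some of these genes were thus covered by H3K9me3 with little of the other states, and some by H3K9me3 together with H3K9me2.

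**Figure D3:**
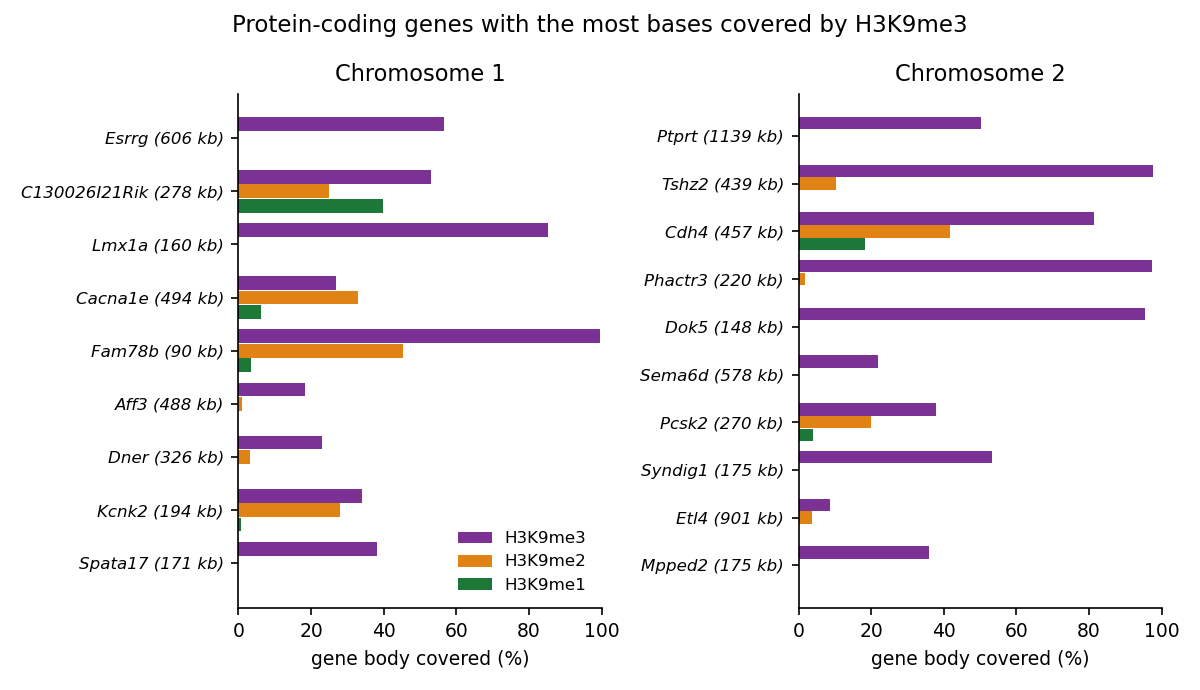
Share of the gene body (x axis, %) covered by H3K9me3, H3K9me2 and H3K9me1 for 9 protein-coding genes of chromosome 1 (left) and 10 of chromosome 2 (right) among those with the most bases covered by H3K9me3, ordered by covered bases, with gene length in brackets. Tshz2, Phactr3, Dok5 and Fam78b are covered to over 95% by H3K9me3, and H3K9me2 exceeds 40% in Cdh4 and Fam78b.

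Of the 40 genes covered to at least 90%, 15 lay on chromosome 1 and 25 on chromosome 2. The 10 longest were Tshz2, Phactr3, Dok5, Fam78b, Edn3, Pdc, Olfr1272, Olfr1271, Tfap2c and Olfr142. Edn3 (23.4 kb) and Tfap2c (9.03 kb), which encodes the transcription factor AP-2 gamma, were covered to 100% by H3K9me3 with neither of the other states. Pdc (14.5 kb), Olfr1272 (12.6 kb) and Olfr1271 (10.5 kb) were covered to 100% by each of the 3 marks. The 40 also included Gm13691 and Gm13693 to Gm13698 on chromosome 2, each 2.493 kb long. They were named after their values were seen, and reads from genes of such equal length in 1 cluster may not be told apart, so their coverage is uncertain. The same holds for other members of families with near-identical copies.

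Of the 150 genes with a promoter met by H3K9me3, 92 had H3K9me3 alone at their starts, 17 also H3K9me2, 10 also H3K9me1 and 31 all 3 marks. These are counts of genes, and the marks can lie at different starts of 1 gene. H3K9me2 was thus present at a promoter of 32.0% of these genes and H3K9me1 at one of 27.3%. Over all 3051 genes, H3K9me1 met a promoter of 917 and H3K9me2 one of 140.

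Among the gene lists, bodies of developmental regulators were met at a higher rate than those of all 3051 genes (10.5%). Bodies of olfactory receptor genes were met at a lower one (3.74%). At promoters, the shares were 22.5% of the 40 regulators below and 3.74% of the olfactory receptor genes, beside 4.92% of all genes. No test was made of these counts, and a longer body has more bases at which it can be met. Of the 9 Hoxd genes, which pattern the limb and the body axis, 5 were met in the body and at a promoter. Hoxd10 (chr2:74691924-74695105) was covered to 100%, Hoxd9 to 61.4%, Hoxd11 to 50.3%, Hoxd3 to 13.5% and Hoxd4 to 13.1%. No H3K9me2 or H3K9me1 met these 5 genes. Of 40 homeobox, paired-box and related regulators, 11 were met in the body (27.5%) and 9 at a promoter. Sp5 and Nkx2-4 were covered to 100%, Sall4 to 88.8%, Evx2, next to the Hoxd genes, to 80.8%, Sox17 to 46.7%, Prox1 to 38.8%, Pax1 to 22.6% and Tbr1 to 13.4%, besides Tshz2, Lmx1a and Tfap2c.

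Channel and adhesion genes were also met, with no test made. Over all 3051 genes, the body was met in 10.5% and a promoter in 4.92%. A longer gene has more bases at which it can be met. Of 19 potassium channel genes, 5 were met in the body and 5 at a promoter, among them Kcnk2, Kcne4, an accessory subunit, which was covered to 100%, Kcnh1 to 9.63% and Kcnb2 to 1.55%. Of 6 cadherin genes, 5 were met, with Cdh26 at 38.5%, Cdh22 at 3.04%, Cdh20 at 1.98% and Cdh7 at 1.43%, besides Cdh4, whose promoter was the only one met in the list. In the sodium channel list, 2 of 5 genes were met, Scn2a at 3.07% and Scn1a at 1.32%, and no promoter. Kcnb2, Cdh22, Cdh20, Cdh7, Scn2a and Scn1a were covered to less than either chromosome as a whole (4.28% and 6.32%).

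Olfactory receptor genes, of which chromosome 2 holds large clusters, were mostly free of H3K9me3. Of 321 members, 12 were met in the body and 12 at a promoter (3.74% each), beside 10.5% and 4.92% of all 3051 genes. Those met in the body included Olfr1305 (72.1%), Olfr1269 (55.7%), Olfr1307 (53.7%) and, on chromosome 1, Olfr1416 (44.8%). Olfr1298, Olfr1306, Olfr1284, Olfr1318 and Olfr1415 were covered to between 7.13% and 23.3%. Of 32 genes named Zfp, which encode zinc finger proteins, 6 were met (18.8%), namely Zfp648 (100%), Zfp831 (64.3%), Zfp663 (28.4%), Zfp937 (19.8%), Zfp442 (5.07%) and Zfp385b (2.57%).

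In the clusters of secreted and immune genes, the body was met in 1 of 11 Serpinb genes (Serpinb3b, 6.03%), 2 of 13 PYHIN genes (Ifi213 at 11.4% and Aim2 at 7.82%), 1 of 13 beta defensins (Defb41, 21.2%), 2 of 13 Bpif genes (Bpifb5 and Bpifb6, 15.45% and 15.01%), 2 of 14 Wfdc genes (Wfdc11 at 53.6% and Wfdc9 at 44.9%) and 0 of 8 cystatins. Over all 3051 genes the body was met in 10.5%, and the shares in these small lists ran from 0% to 15.4%, with no test made. H3K9me1 met 12 of the 14 Wfdc promoters and 7 of the 13 beta defensin promoters, beside 917 of all 3051. H3K9me3 met 2 promoters of the first list and 0 of the second, beside 150 of all 3051.

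Of 34 genes of the fibroblast matrix and its signals, 5 were met in the body (14.7%) and 1 at a promoter, beside 10.5% and 4.92% of all 3051 genes. Bmp7 was covered to 83.3% with 40.5% under H3K9me2, and Bmp2, a gene that the study uses as an example and whose product is a bone morphogenetic protein, was covered to 59.1% with its promoter met. Col4a4, Col19a1 and Col4a3 were covered to 6.50%, 2.30% and 1.11%. The major fibroblast collagen and adhesion genes Col3a1, Col5a2, Fn1 and Fbn1 were covered to 0%. Of 10 imprinted genes, 5 were met in the body and 4 at a promoter, with Nnat at 88.9%, Blcap, which spans Nnat, at 30.2%, Gnas at 13.2%, Zdbf2 at 12.7% and Wt1 at 10.03%. Neither Ehmt1 nor Suv39h2, the H3K9 methyltransferase genes of these chromosomes, was met.

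Most H3K9me3 regions of chromosomes 1 and 2 did not meet the other states of H3K9 methylation. H3K9me2 met 372 of the 2033 regions (18.3%, 16.7 to 20.04%), where 56.7% of all H3K9me3 regions of the genome met it. H3K9me1 met 198 (9.74%, 8.53 to 11.1%), where the share over the genome was 40.7%. Both met 144 regions, H3K9me2 alone 228, H3K9me1 alone 54, and neither met 1607 (79.0%, 77.2 to 80.8%). By chromosome, H3K9me2 met 16.5% of regions on chromosome 1 and 20.8% on chromosome 2, and H3K9me1 8.81% and 11.1%. The 9 broadly covered chromosomes hold 23355 of the 27108 regions, and there H3K9me2 met 63.6% and H3K9me1 45.9%. On the 10 others the shares were lower than on chromosomes 1 and 2, with 8.37% and 7.27%. When an overlap of at least 50% of both regions was required, the shares on chromosomes 1 and 2 together were 8.76% for H3K9me2 and 3.54% for H3K9me1.

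By bases, H3K9me2 regions covered 13.7% and H3K9me1 regions 5.59% of the H3K9me3 length, and 85.1% of it lay in neither of these lists. This share was 80.7% on chromosome 1 and 88.2% on chromosome 2. On the 9 broadly covered chromosomes 33.1% of the H3K9me3 length lay in neither list, and on the 10 others 82.1%. The coverage of the other marks did not follow these shares throughout. H3K9me2 covered 2.29% of the bases of chromosomes 1 and 2, 23.7% of the 9 broadly covered chromosomes and 0.231% of the 10 others. H3K9me1 covered 8.83%, 28.8% and 0.237%. On chromosome 1 alone H3K9me2 covered 1.92% and H3K9me1 5.76%, and on chromosome 2 2.69% and 12.1%. The part of these levels in the overlap was not tested. Seen from the other lists, 31.4% of the H3K9me2 bases of chromosomes 1 and 2 lay within H3K9me3, whereas 3.33% of the H3K9me1 bases did. H3K9me3 covered 5.26% of all bases of these chromosomes, which is below the first share and above the second. Over all chromosomes the shares were 70.1% and 32.3%. They were 71.1% and 35.2% on the 9 broadly covered chromosomes, and both were higher still on the 10 others. Chromosomes 1 and 2 thus had the lowest shares of these sets.

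Where the marks met, the overlap was often large. H3K9me2 covered at least 50% of 256 regions and all of 112, and H3K9me1 covered at least 50% of 116 and all of 52. At 50% or more these were 12.6% and 5.71% of the regions, below the 47.5% and 31.8% over all chromosomes. Of the 27108 regions of all chromosomes, H3K9me2 covered all of 6986 and H3K9me1 all of 5775. Of the 121 regions covered to at least 90% by H3K9me2, 25 were also covered to at least 90% by H3K9me1 and 61 had none. The widest was the Pdc and Odr4 region, and it was the largest of a group of such regions between chr1:150166501-150193500 (27 kb) and chr1:150541501-150563250 (21.75 kb), the latter in Hmcn1. Another of 23.25 kb in this group met Prg4, the gene for lubricin, and was covered to 100% by both. On chromosome 2, the widest such region (33.75 kb) met Olfr1272, and one of 21 kb in Ttn, the titin gene, was covered to 92.9% by H3K9me2 with no H3K9me1. These regions were picked after their values were seen.

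Wider regions met H3K9me2 more often. The share rose from 10.03% of the 369 regions under 3 kb to 12.1% of those of 3 to under 6 kb, 21.6% at 6 to under 12 kb, 31.3% at 12 to under 30 kb and 43.9% at 30 to under 100 kb, and it was 42.9% (21.4 to 67.4%) of the 14 regions of at least 100 kb. A wider region has more bases at which it can be met. By bases, H3K9me2 covered 8.68% in the narrowest class, 20.1% at 12 to under 30 kb and 7.22% in the regions of at least 100 kb. H3K9me1 met 7.05% of the regions under 3 kb and 15.2% of those of 30 to under 100 kb, and covered 0.511% of the bases of the widest class. The chromosomes differed at 30 to under 100 kb, where H3K9me2 met 16 of 23 regions on chromosome 1 (69.6%, 49.1 to 84.4%) and 13 of 43 on chromosome 2 (30.2%, 18.6 to 45.1%).

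**Figure D4:**
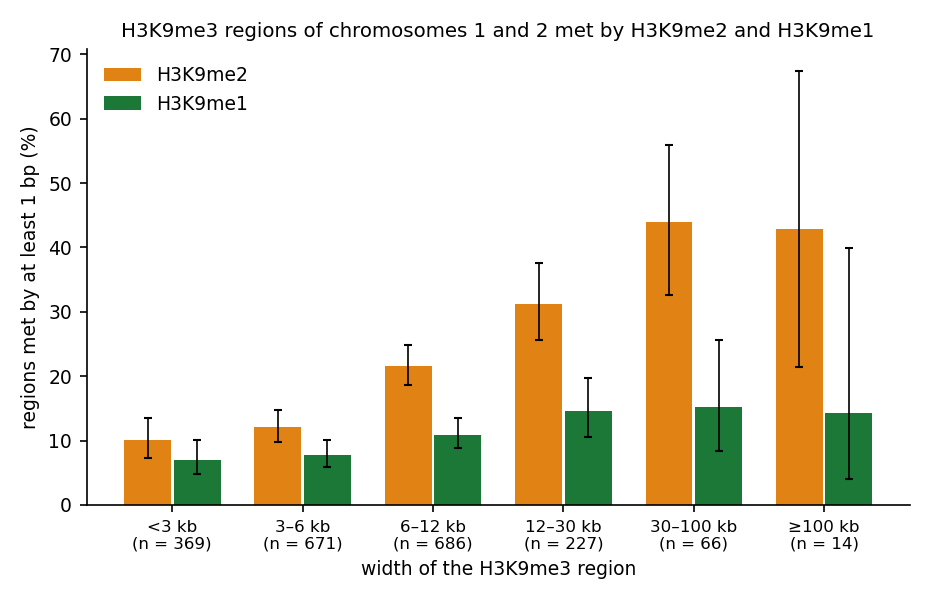
Share of the H3K9me3 regions of chromosomes 1 and 2 (y axis, %) met by at least 1 bp of H3K9me2 (orange) or H3K9me1 (green) in 6 classes of region width (x axis, number of regions in brackets). Bars are shares and lines 95% Wilson intervals, and H3K9me2 goes from 10.03% in the narrowest class to 43.9% at 30 to under 100 kb while H3K9me1 stays at or below 15.2%.

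Around the centres of the H3K9me3 regions, H3K9me2 had a maximum, and H3K9me1 varied within a narrower range. H3K9me2 was present at the centre of 12.5% of the regions of chromosome 1 and 14.6% of those of chromosome 2. At 19.5 kb on the side of lower and of higher coordinates it was present at 6.38% and 5.79% on chromosome 1 and at 5.95% and 6.06% on chromosome 2. H3K9me1 was present at the centre of 5.54% of the regions of chromosome 1, with 3.94% and 4.78% at 19.5 kb on each side, and over 50 kb either side it ranged from 3.27% at 4.5 kb to 5.70% in the bin next to the centre. On chromosome 2 it was present at the centre of 6.42%, with 4.88% and 6.90% at 19.5 kb, and ranged from 4.28% to 7.85%, the highest value lying 44.25 kb from the centre. H3K9me3 itself was at 100% at the centre by construction and at 15.3% to 19.7% at 19.5 kb.

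**Figure D5:**
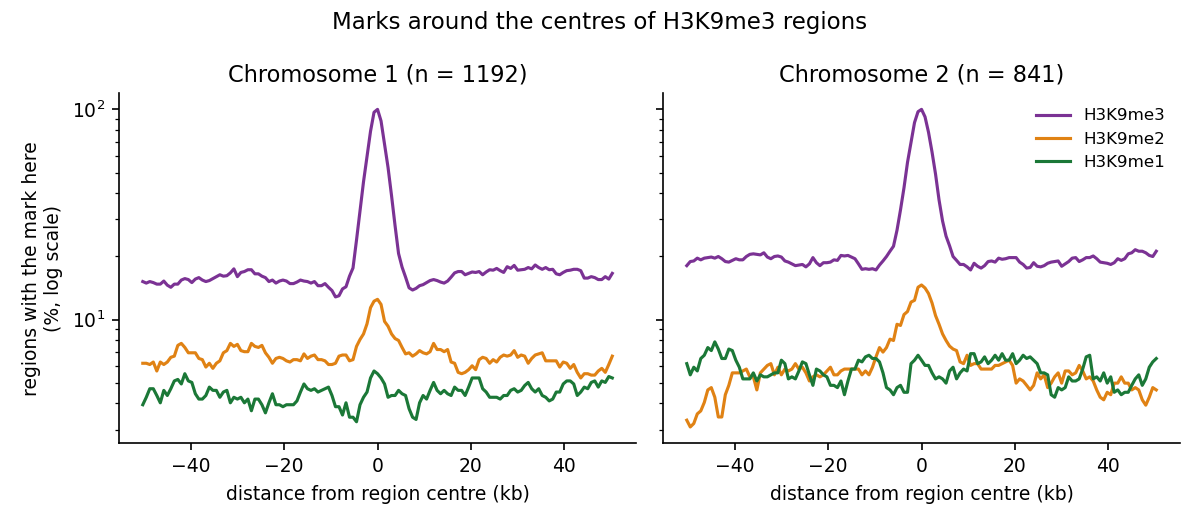
Share of regions (y axis, %, log scale) with H3K9me3, H3K9me2 or H3K9me1 in the 750 bp bin at each distance from the region centre (x axis, kb) for the 1192 regions of chromosome 1 and the 841 regions of chromosome 2. H3K9me2 peaks at the centre at 12.5% and 14.6%, while H3K9me1 lies between 3.27% and 5.70% on chromosome 1 and between 4.28% and 7.85% on chromosome 2.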

How the data were processed

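ChIP-seq of H3K9me1, H3K9me2, H3K9me3 and input was done in wild-type MEFs with 2 replicates each. Per the study's methods and the submitters' processing notes, the authors aligned reads to GRCm38 (mm10) with BWA 0.7.1 and called regions with histoneHMM, a hidden Markov model over genomic bins. The deposited lists hold chromosome, start and end, with no score, depth or replicate value, and 0 columns of per-sample values were left unused. How replicates and input entered the calls, and the calling threshold, is not given in the sources used here. Mapping filters decide which repeats can be called.

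Starts were read as 1-based on the 750 bp grid. Genes were those of GENCODE M21 and sequences those of RefSeq (GRCm38.p6). Deserts were gaps of at least 500 kb between protein-coding genes, within assembled sequence. Overlap needed 1 bp. No test was run, since each mark has 1 list. Interval functions were tested on simulated lists.

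The chromosomes, gene lists and definitions were chosen with earlier results of these data known. Genes named were those of the 10 widest regions per chromosome, the 10 with the most covered bases per chromosome, the 10 longest covered to at least 90%, the flanks of the 10 deserts with the most covered bases, and list members that were met, except genes that are not reported here. Sequences came from list members and genes of the widest regions. Alternatives covered region width, joining, the widest regions, desert size, gene type, promoter window and overlap rule. Matplotlib 3.10.9, SciPy 1.17.1 and NumPy 2.4.6 ran under Python 3.11.15.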

Additional observations from a re-analysis of the deposited data

How the results depend on the processing

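No paired analysis was possible because each mark has 1 list for both replicates, and leaving out a replicate could not be run for the same reason. Of 45 values recomputed under alternatives, 21 stayed within the counting interval, or within 1.5 times for counts and lengths, and 24 did not. For shares of bases this interval took each 750 bp bin as 1 count. Bins of 1 region are not independent, so the interval is too narrow and small shifts fall outside it. With only regions of at least 5 kb kept in the list of every mark, 1144 H3K9me3 regions with a median of 8.25 kb were left. Of these, 32.1% lay in deserts, and 211 genes were met in the body. H3K9me1, with its own narrower regions also left out, then met 6.29% of regions and covered 4.49% of bases. H3K9me2, filtered in the same way, covered 12.5%. Joining regions up to 5 kb apart in the list of every mark gave 14.2% of bases with H3K9me2 and 6.18% with H3K9me1. Requiring 50% of the H3K9me3 region gave 12.6% for H3K9me2 and 5.71% for H3K9me1, and 50% of both regions 8.76% and 3.54%. Without the widest region of each chromosome, deserts held 35.5% of covered bases and H3K9me1 covered 5.92%. Deserts of at least 250 kb (35.7% of the assembled length) held 46.8% of regions and 48.6% of covered bases, those of at least 1 Mb (17.6%) held 21.6% and 19.7%, and gaps between genes of any type (4.85%) held 4.72% and 7.93%. With genes of any type, 636 bodies and 418 promoters were met, and 69 protein-coding bodies were covered to at least 50%. Each alternative changes which regions, genes, gaps or overlaps enter a count, and what made each value shift was not tested.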
